A study of Mus musculus with 2 samples.

Results

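Dgcr8 encodes the RNA-binding subunit of the Microprocessor, and its own mRNA carries the hairpins of miR-1306 and miR-3618. Both miRNAs were present in a list of miRNA transcripts deposited for nucleolin immunoprecipitation in activated mouse T cells. The members were chosen by their names in the miRNA column of that list, which gave 2 of its 101 rows, namely mmu-miR-1306-3p and mmu-miR-3618-3p. Since they were chosen by presence in the list, that presence is a description and no finding.

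In the canonical pathway a primary transcript folds into a hairpin, DGCR8 binds it, and the nuclease Drosha cuts the hairpin out at the base of its stem. Exportin-5 carries the hairpin to the cytoplasm, Dicer removes the loop, and 1 strand of the resulting duplex is loaded on an Argonaute protein. The Microprocessor is known to cut hairpins in the Dgcr8 mRNA as well, which destabilises that mRNA and lowers the amount of DGCR8, a feedback loop on its own subunit. Nucleolin is an abundant nucleolar RNA-binding protein that has been reported to associate with the Microprocessor.

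There were 2 samples without replicates, a nucleolin immunoprecipitate and an input. Both are of spleen CD4+ T cells of wild type mice, per the design text naïve cells of the C57 background, and both were stimulated with antibodies against CD3 and CD28. Small RNA libraries were made from total RNA. The design text names an IgG precipitate, whereas the second sample is titled as an input. The list holds no read counts and no column for either sample, so the depth is unknown, no level of miR-1306 or miR-3618 can be given, and markers of T cells could not be looked at. A ratio of nucleolin immunoprecipitate to input was not computed.

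The mature sequences from RefSeq (GRCm38.p6) are shown because the alignments, the seeds and the arms described below all refer to them. Capitals mark the seed, bases 2 to 8, by which a miRNA pairs with its targets. The 3p sequences were listed and the 5p sequences are their unlisted partners.
mmu-miR-1306-3p: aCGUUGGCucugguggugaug
mmu-miR-1306-5p: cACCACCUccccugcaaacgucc
mmu-miR-3618-3p: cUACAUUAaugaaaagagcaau
mmu-miR-3618-5p: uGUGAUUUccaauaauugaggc

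The listed sequences differed in composition. In miR-1306-3p, which has 21 nt, 57.1% of the bases are G or C, and in miR-3618-3p, which has 22 nt, 27.3% are. Without gaps, at most 7 bases could be made identical between them at any offset. Neither seed was shared with any other of the 1970 mature mouse miRNA names in RefSeq, listed or not. The same held for the 5p partners, so each of the 4 sequences forms a seed group of its own. Each of the 4 sequences occurred at 1 place in the assembled chromosomes, the Dgcr8 locus on the minus strand of chromosome 16, so an exact match of full length has 1 possible origin in this assembly.

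The row of miR-1306-3p paired the transcript of Mir1306 with the miRNA over 21 nt, which covered 100% of the miRNA and 35% of the 60 nt searched. The match ran from position 10 to position 30 of the searched sequence. Its identity was 100%, its score 21, its bit score 42.1 and its E-value 2.46e-07. The row of miR-3618-3p paired the transcript of Gm24572, the gene known in RefSeq also as Mir3618, with the miRNA over 22 nt. This match covered 100% of the miRNA and 36.67% of the 60 nt searched, from position 13 to position 34, with an identity of 100%, a score of 22, a bit score of 44.1 and an E-value of 6.23e-08. Both rows gave the orientation of the miRNA as -1, that is, the miRNA matched the opposite strand of the searched sequence, and both named the 3p arm. As rebuilt below, the searched sequence is of the plus strand, and both miRNA genes lie on the minus strand.

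The identity was 100% in all 101 rows, so it does not set the members apart. Scores and E-values added nothing to the lengths, because each aligned length had 1 E-value among the 94 rows with a searched sequence of 60 nt. By length, miR-1306-3p was 1 of 30 rows with 21 nt, with 63 rows longer and 8 shorter. The length of miR-3618-3p equalled the median of 22 nt, with 39 rows of that length, 24 longer and 38 shorter. The orientation was -1 in 60 of the 101 rows, and these held every one of the 39 rows with a 3p arm. In minus-strand genes the searched sequence, as rebuilt below, begins at the 3′ end of the gene and so reaches the 3p arm first. Both members thus belong to the largest class of rows by arm and strand among minus-strand rows, the others being 8 rows with a 5p arm and 13 with no arm in the name.

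Within that class the members were among the rows in which the match began late. Both began later in the searched sequence than most 3p rows on the minus strand, where the start ranged from 1 to 35 with a median of 2. Before the start of miR-1306-3p at 10 came 32 of those 39 rows, and 6 began after it. Before the start of miR-3618-3p at 13 came 33, and 5 began after it. A late start is thus not particular to the members, and among the later rows miR-29a-3p began at 14 and miR-7a-1-3p at 22. Over all 101 rows, of any arm and strand, the median start was 6. Of these, 35 rows began after miR-1306-3p and 28 after miR-3618-3p. On the minus strand the start counts the hairpin bases beyond the 3′ end of the miRNA, so Mir1306 extends 9 nt past its 3p arm and Gm24572 extends 12 nt. Of 79 listed loci with both arms annotated, 41 end with the last base of the 3p arm, as the hairpins of mirtrons do, which are cut out by splicing in place of Drosha. Such an end does not by itself mark a mirtron, since miR-7654-3p and miR-7658-3p, in coding exons, also start at 1. Of the 79, 14 extend at least 9 nt beyond the 3p arm, against 372 of 858 loci with both arms in the whole annotation. These counts describe the annotation and were not tested.

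**Figure D1:**
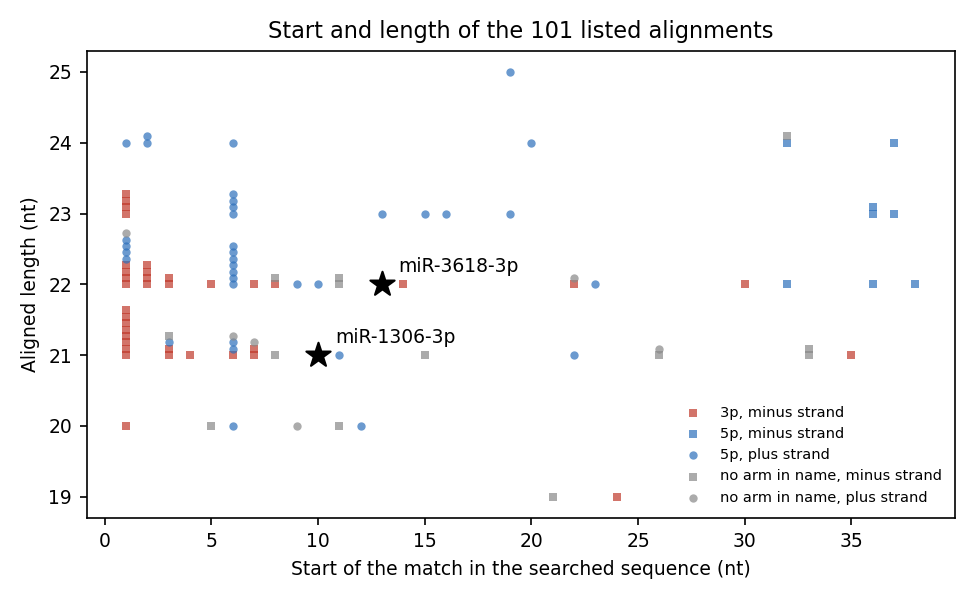
Start of the match in the searched sequence (nt, horizontal) against aligned length (nt, vertical) for the 101 listed alignments, with rows that share both values stacked upward. Colours give the arm, squares the minus strand and circles the plus strand, and black stars mark miR-1306-3p at start 10 with 21 nt and miR-3618-3p at start 13 with 22 nt, both 3p arms on the minus strand, to the right of most red squares.

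The rows most like each member were taken as those of the same aligned length, arm and strand with the nearest start. For miR-1306-3p there were 15 such rows, and the nearest were miR-5132-3p in Irak1 and miR-700-3p in a coding exon of Rcan3, both with a start of 7, followed by miR-3084-3p in Eif3a at 6, miR-6970-3p in Skiv2l at 4 and miR-6945-3p in Pdlim7 at 3, with which miR-7064-3p ties at 3. For miR-3618-3p there were 16, the nearest being miR-29a-3p, which lies in no host gene, with a start of 14, and miR-7084-3p in the 5′ UTR of Elof1 with a start of 8. Then came miR-3068-3p in Alkbh1 at 7, miR-6977-3p in Ptprs at 5 and miR-7a-1-3p in Hnrnpk at 22.

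Of the 2 arms of each hairpin, the 3p arm alone lay whole in the searched sequence. That sequence spans 60 nt, counted on the plus strand from the end of the miRNA gene with the lower coordinate. Rebuilt in this way, it held the listed miRNA at the stated positions for both members. It contained all 21 nt of miR-1306-3p and 11 of the 23 nt of miR-1306-5p. In Gm24572 it contained all 22 nt of miR-3618-3p and 8 of the 22 nt of miR-3618-5p. Since the shortest alignment in the list has 19 nt, neither 5p arm could have been listed. The rows therefore do not show which arm was in the RNA. Taken from the 5′ end of the gene, 60 nt would have held both 5p arms whole but 11 nt of miR-1306-3p and 6 nt of miR-3618-3p.

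Both hairpins lie in exon 2 of the 14 exons of the principal Dgcr8 transcript, on the minus strand of chromosome 16 in GRCm38. Exon 2, from 18283697 to 18284696, holds 280 nt of 5′ UTR, the start codon, and the beginning of the coding sequence. Mir1306 extends from 18284239 to 18284317 and lies whole in the coding sequence, where its 79 nt are coding bases 100 to 178, within codons 34 to 60 of 773. The mature miR-1306-3p, from 18284248 to 18284268, falls in codons 50 to 57. Gm24572 extends from 18284550 to 18284637, and all of its 88 nt lie in the 5′ UTR. Its mature miR-3618-3p runs from 18284562 to 18284583.

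In the mRNA of 4320 nt the miR-3618 hairpin comes first, at bases 204 to 291, and the miR-1306 hairpin second, at bases 524 to 602. Between them lie 232 nt, of which the first 133 are 5′ UTR. All coding sequence after codon 60 lies downstream of both hairpins. RefSeq places both hairpins in the same regions in all 6 of its Dgcr8 transcripts. Of the 10 GENCODE transcripts, 4 hold the whole of Mir1306 in an exon, 2 of them in coding sequence, and 2 hold the whole of Gm24572.

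**Figure D2:**
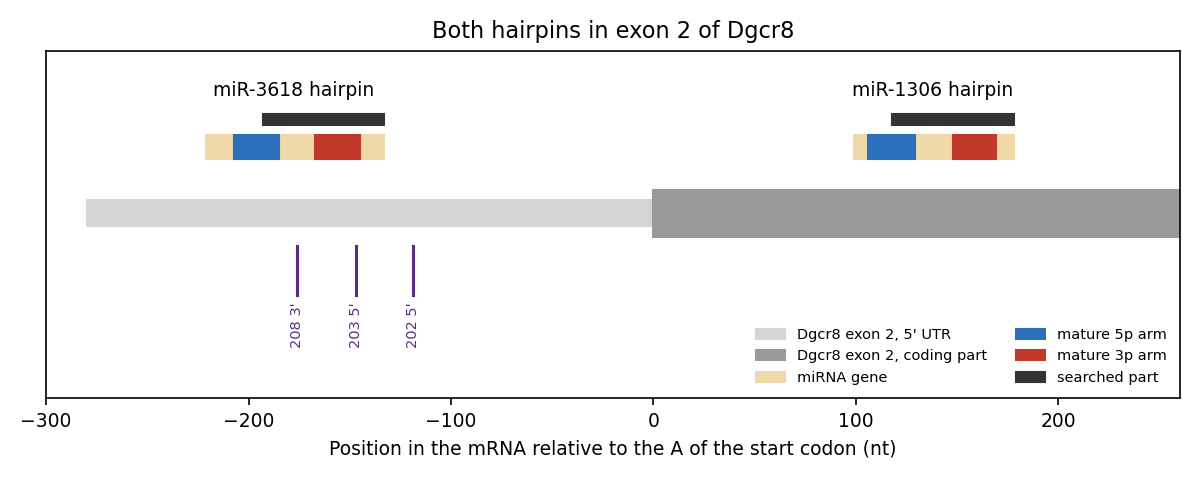
Map of exon 2 of the Dgcr8 mRNA by distance from the A of the start codon (nt), 5′ to the left, with the 5′ UTR as a light bar and the first part of the coding sequence as a dark bar. Above it are both miRNA genes with their 5p arm (blue), 3p arm (red) and searched part (black bar), and below it the annotated ends of 3 shorter Dgcr8 transcripts, 2 of which fall inside the miR-3618 hairpin.

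Annotated ends of Dgcr8 transcripts fall within the miR-3618 hairpin. The retained-intron transcript Dgcr8-203 starts at 18284563, inside miR-3618-3p, 2 nt before the first base downstream of that miRNA. The processed transcript Dgcr8-208 ends at 18284592, in the loop, 9 nt before the first base of miR-3618-3p. The retained-intron transcript Dgcr8-202 starts at 18284535, 26 nt downstream of the first base after miR-3618-3p. No annotated transcript end falls within Mir1306 or within 40 nt of it. Of 66 miRNA loci that the search could have matched and that lie in a coding exon or UTR of a gene on their own strand, 22 were listed (33.3%). Of the 66, 9 hold an end of a host transcript, and 4 of these 9 were listed (44.4%), that of miR-3618 among them. The other listed ones are Gm22133 in Ftl1, which encodes the ferritin light chain, Mir7654 in Arglu1 and Mir1892 in Sptssa. Both members are counted among the 22, and miR-3618 among the 4. They are listed by the choice of the members, so the shares are not compared. Whether the transcript ends are products of cutting was not tested.

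The Mir1306 hairpin from RefSeq, shown because its paired arms also code for protein, reads 5′ to 3′ as follows, with the 5p and 3p arms in capitals.
Mir1306: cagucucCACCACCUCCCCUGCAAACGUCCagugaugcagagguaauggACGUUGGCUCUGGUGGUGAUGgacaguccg

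Folded alone, both hairpins had nearly the same predicted minimum free energy, -29.8 kcal/mol for Mir1306 and -29.9 kcal/mol for Gm24572. Per nt this was -0.377 kcal/mol for Mir1306 and -0.34 kcal/mol for Gm24572, against a median of -0.395 over the 101 listed loci and -0.369 over all 2202 annotated miRNA transcripts. Counted from the most stable, Mir1306 ranked 61 and Gm24572 ranked 81 of the listed loci, so neither is among the most stable ones. The GC content was 58.2% in Mir1306, close to the listed median of 57.5%, and 39.8% in Gm24572, which was sixth from the lowest of the 101. The miR-3618 hairpin thus belongs to the few AT-rich loci in the list.

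**Figure D3:**
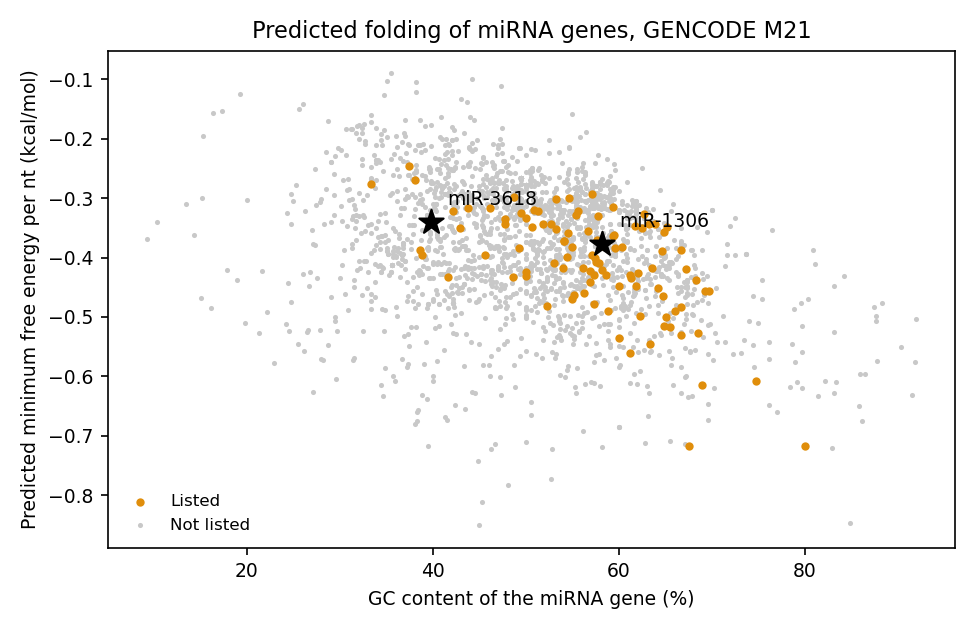
GC content of the miRNA gene (percent, horizontal) against predicted minimum free energy per nt (kcal/mol, vertical, lower is more stable) for 2202 annotated miRNA transcripts, grey where not listed and orange where listed. Black stars mark miR-1306 at 58.2% GC and miR-3618 at 39.8% GC, both in the middle of the energy range.

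The predicted folds place the arms against each other. In both hairpins 14 bases of the 3p arm pair with the 5p arm. Drosha at the base of the stem and Dicer near the loop are known to leave short 3′ overhangs on their products. At the base of the stem the 3p arm overhangs by 3 nt in Mir1306 and by 2 nt in Gm24572. At the loop end the 5p arm overhangs by 2 nt in both. An overhang of 2 nt at both ends, as in Gm24572, was predicted at 8 of the 79 listed loci with both arms and at 225 of 858 in the annotation. The 5p and 3p arms are separated by 19 nt in Mir1306 and 18 nt in Gm24572, against a median of 18 nt over the listed loci with both arms. Outside the arms, the stem of Mir1306 has 7 nt before the 5p arm and 9 nt after the 3p arm, and that of Gm24572 has 14 nt before and 12 nt after.

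The 2 hairpins differed once flanking sequence was added. With 20 nt of genome on each side, the fold of Gm24572 kept 31 of its 31 base pairs, and its energy was -33.8 kcal/mol. The fold of Mir1306 kept 0 of its 23 pairs, and the energy was -37.3 kcal/mol. With the hairpin enforced the same Mir1306 sequence reached -30.5 kcal/mol, 6.8 kcal/mol above the free fold. Flanks of 5 and 10 nt kept all 23 pairs of Mir1306, and flanks of 15, 30 and 40 nt kept 0, with the enforced hairpin 5.9 to 8 kcal/mol above the free fold. Gm24572 kept all its pairs at each of these 6 flank sizes. With 20 nt on each side, 9 of the 101 listed loci kept 0 pairs and 85 kept 50% or more. Among the 10 listed loci in coding exons on their own strand, Mir1306 was the 1 that kept 0. These are predicted folds of the reference sequence, not measurements in cells.

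**Figure D4:**
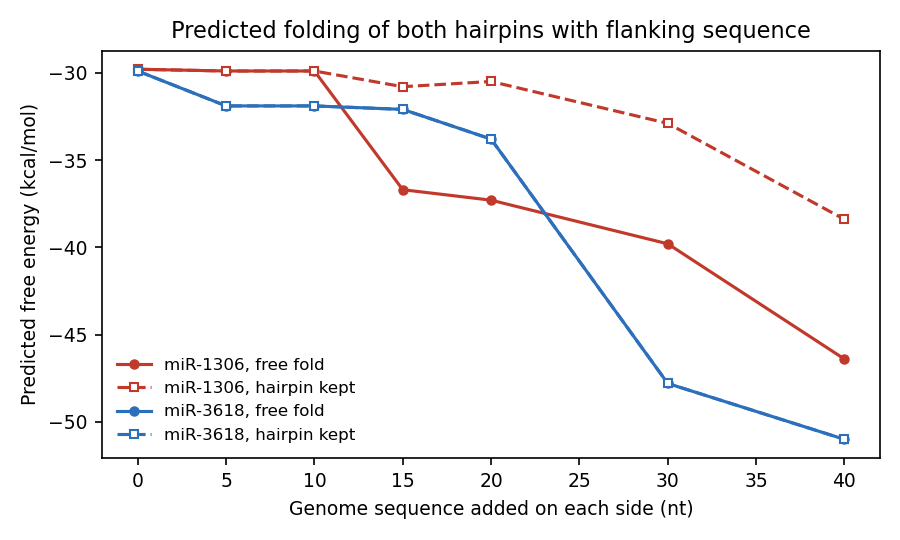
Predicted free energy (kcal/mol) of miR-1306 (red) and miR-3618 (blue) with 0 to 40 nt of genome added on each side. Filled circles with solid lines show the free fold and open squares with dashed lines the fold with the hairpin enforced, which lie on each other for miR-3618 and part for miR-1306 from 15 nt on, by 5.9 to 8 kcal/mol.

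Coding exons and 5′ UTRs hold few mouse miRNA loci. Of 1241 loci that the search could have matched, 100 were listed (8.06%), and the remaining listed row has no mature sequence in RefSeq. In coding exons of a gene on their own strand lay 18 such loci, of which 10 were listed (55.6%), and in 5′ UTRs on their own strand lay 19, of which 6 were listed (31.6%). The members are counted in these numbers. Besides miR-1306-3p, the listed coding-exon loci were those of miR-671-5p in Chpf2, miR-692 in Ftl1, miR-700-3p in Rcan3, miR-1199-3p in 2210011C24Rik, miR-1893 in Epc1, miR-7654-3p in Arglu1, miR-7658-3p in Plekhn1, miR-8094 in Ddx39b and miR-8104 in Ppm1h. Besides miR-3618-3p, those in 5′ UTRs included miR-707 in Akt1s1, miR-7084-3p in Elof1, miR-7653-5p in Tlcd1 and miR-7672-3p in Pde12. Within this group of 16, the GC content ranged from 39.8%, the value of Gm24572, to 80%, with a median of 62.6%.

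Dgcr8 was 1 of 3 protein-coding genes with at least 2 such loci in coding exons or UTRs on their own strand. The others were Cdk9, a kinase of transcription elongation, and 2010111I01Rik, with 2 loci each. That both Dgcr8 loci are listed follows from how the members were chosen, so the 3 genes are not compared by it. Counting introns and other hosts as well, 58 genes held at least 2 loci.

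Some genes of the miRNA pathway host a miRNA. A list of 31 genes held those for the Microprocessor and its cofactors, lariat debranching, export, dicing and tailing, and silencing, and also Ncl, the gene of the precipitated nucleolin. Of these 31 genes, 4 held a locus that could have been matched, 5 loci in all, and 3 were listed. Besides both loci of Dgcr8, the listed one was Mir3064 in the 3′ UTR of Ddx5, a helicase that assists the Microprocessor, and its row matched miR-3064-3p over 22 nt from position 3. Not listed were Mir693 in an intron of Xpo5, which encodes exportin-5, and Mir5113 in the 3′ UTR of Tnrc6b, which encodes a partner of Argonaute. With 2 of the 5 loci fixed by the choice of the members, the other 3 give 1 listed locus beside the 8.06% of all loci. Mir3064 and Mir5113 lie in 3′ UTRs, however. Among loci in a coding exon or UTR on their own strand the listed share was 33.3%, with the members counted.

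The Dgcr8 3′ UTR held no match to either seed. The motif searched was the complement of bases 2 to 8, GCCAACG for miR-1306-3p and TAATGTA for miR-3618-3p, on the mRNA strand of its 1577 nt. Among 1357 mouse 3′ UTRs within 10% of that length, 26 (1.92%) held the first motif and 183 (13.5%) the second. In the 3′ UTRs of the 31 genes of the pathway list the miR-1306-3p motif was found in 0, and the miR-3618-3p motif in 7, those of Ago1, Ago2, Ago3, Tnrc6b, Prkra, Lin28b and Ncl, which encodes nucleolin. Over the 3′ UTRs of 21815 genes, of any length, 266 (1.22%) held the miR-1306-3p motif and 2327 (10.7%) the miR-3618-3p motif, and the lengths of the 31 were not matched to these. A match of letters is not a site in use.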

How the data were processed

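The deposited table was used, 1 table of BLAST alignments for the series as a whole. The authors deposited the identity of each alignment as a percent value, with its score and bit score, per the file headers. Per the submitters' processing notes the build was mm9, and the design text names mm10. For the program version, its settings and the choice of transcripts, the sources used here give nothing. No column belongs to 1 sample, so nothing was compared between the nucleolin immunoprecipitate and the input, and depth is unknown.

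GENCODE M21 on GRCm38 held 101 of 101 transcript identifiers. Coordinates are counted from 1. Host genes contain the whole locus. A locus counts as in a coding exon or UTR where the larger part of it lies there in any transcript of the host. The searched part of a locus is 60 nt on the plus strand, counted from its lower coordinate. A locus could have been matched if that part holds 19 nt of a mature miRNA on the strand of the locus. Folds were predicted with ViennaRNA 2.7.2 at 37 °C, and the helper functions were tested on simulated data. For seed matches the principal transcript with the longest 3′ UTR was taken.

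The members, the pathway list and the descriptions were chosen with earlier results of these data known. Named loci are the members, those sharing a seed, those in coding exons or 5′ UTRs, those in pathway genes and the 5 most alike rows. Of those in 5′ UTRs, 1 is not reported here by name. Loci with a transcript end inside and the genes with at least 2 loci in exons were named after their values were seen. Alternatives covered the choice of members, the searched part, the annotation, the flanks, the seed and the host rule.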

Additional observations from a re-analysis of the deposited data

How the results depend on the processing

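Taking rows by position inside Dgcr8, or the best alignment of each query, also gave 2 members. With alignments of at least 22 nt 1 was left, since miR-1306-3p has 21 nt. Rebuilding the searched sequence from the 5′ end of the gene placed 0 of the 2 members at the stated positions. The overlap with exons, the folds of the RefSeq hairpins, seeds of bases 2 to 7 and hosts on either strand gave the same values. Flanks lowered the predicted energy, and in Mir1306 flanks of 15 nt and more also changed the predicted fold. For Mir1306 the energy was -29.9 kcal/mol with 5 and with 10 nt, -36.7 with 15, -37.3 with 20, -39.8 with 30 and -46.4 with 40 nt. For Gm24572 it was -31.9 with 5 and with 10 nt, -32.1 with 15, -33.8 with 20, -47.8 with 30 and -51.0 with 40 nt. Flanks other than 20 nt were chosen after seeing the data. No paired analysis was possible because the nucleolin immunoprecipitate and the input are single libraries with no values of their own. For want of counts, their ratio was not run under either scaling. Absence from the list does not show absence from the precipitate.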
